A study of Mus musculus with 24 samples.

Results

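This account follows genes of intraepithelial T cells in small intestinal crypts and villi of mice that lost Rb, the activator E2f genes, or both. The set lists 10 genes. The members were the genes whose symbol in the platform annotation is on that list, each read through its probe set of highest average level on the 24 arrays. This gave 9 genes of 18193 measured (Cd3d, Cd3e, Cd3g, Cd8a, Cd7, Gzma, Gzmb, Itgae and Ccl5), and the other listed gene was not analysed here. RNA was measured on Affymetrix mouse arrays, which read a transcript through short DNA probes, with 3 arrays in each of 8 groups. The groups were crypts and villi of wild-type mice (WT), of Rb-/- mice (Rb), of E2f1-/-;E2f2-/-;E2f3-/- mice (TKO) and of mice that lacked Rb as well as these E2f genes (QKO). All mice were of a mixed C57BL/6;FVB background and 2 months old, and all, WT included, had received beta-naphthoflavone intraperitoneally 7 days before harvest. Beta-naphthoflavone is a ligand of the aryl hydrocarbon receptor, and in mouse intestine it is used to switch on Cre recombinase from the Cyp1a1 promoter in the epithelium. The labels name no Cre driver and do not say in which cells each gene was lost, so whether the T cells of a mutant carried the same deletions as its epithelium is not given. Values are log2 expression, and a difference of 1 is a 2-fold change.

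Intraepithelial T cells sit between the epithelial cells of the gut, mostly along the villi. Many carry the CD8 alpha chain, the integrin alpha chain Itgae, which binds E-cadherin on epithelial cells, and stored granzymes, the proteases that kill target cells. Their T cell receptors signal through the CD3 chains encoded by Cd3d, Cd3e and Cd3g. Cd7 encodes a surface protein of T and natural killer cells, and Ccl5 a chemokine that attracts other leukocytes. Natural killer cells can also express Gzma, Gzmb, Ccl5 and Cd7, and some dendritic cells Cd8a and Itgae. Crypt and villus preparations are bulk tissue, so fewer T cells and less RNA of these genes per cell cannot be told apart.

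Cd3g, Cd3d and Cd3e lie next to each other on chromosome 9, and Gzma and Gzmb are on chromosomes 13 and 14. All 9 members moved together across the groups, and up to 250 bases before the start of these 5 genes are shown. The stretches of Cd3d and Cd3e end where the longest span of the gene begins, which left out the last 17 and 52 bases of their 250. The sequences are RefSeq's for GRCm38.p6, whose promoter table held 6 of the 9 members, the sixth being Cd8a. Capitals mark matches, on either strand, to a RUNX core (TGTGGT), an ETS core (AGGAAG), an E box (CAGGTG) and a T-box core (AGGTGT).
Cd3g, chr9:44980432-44980681, minus strand: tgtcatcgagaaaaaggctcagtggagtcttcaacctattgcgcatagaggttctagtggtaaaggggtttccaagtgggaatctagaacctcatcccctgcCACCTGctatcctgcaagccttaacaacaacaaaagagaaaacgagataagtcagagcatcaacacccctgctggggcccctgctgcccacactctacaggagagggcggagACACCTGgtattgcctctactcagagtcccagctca
Cd3d, chr9:44981536-44981768, plus strand: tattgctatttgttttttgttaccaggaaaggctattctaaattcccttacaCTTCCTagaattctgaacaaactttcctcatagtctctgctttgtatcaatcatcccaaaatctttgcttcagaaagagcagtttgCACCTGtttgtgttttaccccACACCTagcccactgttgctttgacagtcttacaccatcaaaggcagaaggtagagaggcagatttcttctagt
Cd3e, chr9:45009664-45009861, minus strand: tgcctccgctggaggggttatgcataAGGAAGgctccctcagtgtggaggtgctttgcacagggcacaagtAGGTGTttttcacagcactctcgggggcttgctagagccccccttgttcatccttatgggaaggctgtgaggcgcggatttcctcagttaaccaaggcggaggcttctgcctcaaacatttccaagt
Gzma, chr13:113100982-113101231, minus strand: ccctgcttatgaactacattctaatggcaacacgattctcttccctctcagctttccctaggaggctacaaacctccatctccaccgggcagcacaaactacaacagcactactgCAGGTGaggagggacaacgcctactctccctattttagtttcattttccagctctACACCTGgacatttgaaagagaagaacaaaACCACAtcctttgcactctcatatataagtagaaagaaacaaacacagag
Gzmb, chr14:56262335-56262584, minus strand: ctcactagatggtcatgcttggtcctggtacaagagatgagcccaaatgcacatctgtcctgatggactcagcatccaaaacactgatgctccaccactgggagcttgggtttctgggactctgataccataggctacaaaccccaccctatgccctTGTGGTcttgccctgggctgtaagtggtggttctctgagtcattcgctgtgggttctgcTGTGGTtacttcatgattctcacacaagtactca

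Among the 6 member promoters 4 held the T-box core, against 12.0% of 27025 promoters, counted over the full 250 bases. The E box was in 3 (17.1% of all), the RUNX core in the 2 granzyme promoters (14.2% of all) and the ETS core in 2 (29.2% of all). The E box and the T-box core share 5 letters, and in Cd3g and Gzma 1 match to each overlapped. No member promoter held an E2F site (TTTGGCGC, TTTCCCGC, TTTCGCGC or TTTGCCGC, either strand), which 1.91% of all promoters held. The Cd8a promoter, which is not shown, held no match to any of these motifs. A match is a description of the letters and not of binding.

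Properties of the arrays bear on the results below. Bacterial poly-A controls, added to RNA before labelling, read 5.44 to 7.13 on the 12 WT and Rb arrays. On the 12 TKO and QKO arrays they read 9.70 to 11.89, so this difference and E2f status cannot be told apart. These controls also separated the QKO compartments: every villus array was at 11.28 or above, and every crypt array at 10.37 or below. The Rb compartments were apart too, by less (group means 6.44 for villi, 5.67 for crypts), while those of WT and of TKO overlapped. The part of these differences in villi minus crypts, or in contrasts built on it, was not tested. Hybridization controls, added after labelling, averaged higher in crypts than villi in WT (11.04 and 10.36) and Rb (11.02 and 10.31), and lower in crypts than villi in TKO (10.64 and 10.82) and QKO (10.79 and 11.34). The array medians of QKO crypts 2 and QKO villi 3 were 5.17 and 5.26, above the 4.97 to 5.08 of the other 22. Rb1 went against the label on 1 array of each crypt group: it read 8.46 on the array labelled WT crypts 3 (10.31 and 10.59 on the others) and 10.25 on the array labelled Rb crypts 2 (8.23 and 8.87). The Y-linked gene Eif2s3y was high on all 6 QKO arrays, on 2 of 3 arrays in each TKO group and in Rb villi, and on none of the other 9. Sex therefore cannot be told apart from the difference of QKO from WT, nor from that of QKO from Rb in crypts. In part it also differs in other comparisons, among them villi minus crypts in Rb and TKO minus WT. The fits with sex as a covariate take its effect from the TKO groups and Rb villi, the only groups with both readings. The compartment labels held in WT: the mean of 9 crypt markers was 10.27 to 10.58 in crypts and 8.18 to 8.39 in villi, and that of 9 villus enterocyte markers 13.05 to 13.41 and 13.98 to 14.07. In the mutants the crypt marker means did not overlap either, but lay closer together. They were 9.72 to 10.50 in crypts and 9.22 to 9.41 in villi of Rb, 9.58 to 10.11 and 8.38 to 9.29 in TKO, and 9.66 to 9.98 and 8.37 to 8.56 in QKO. The natural killer receptor gene Ncr1, chosen after its values were seen, read between 4.39 and 5.37 on every array.

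By group means, QKO spanned the whole range of the T cell genes. For all 9 members the highest group mean was that of QKO villi and the lowest that of QKO crypts, and the distance between these means ran from 2.36 for Cd3e to 4.41 for Cd3g. The mean of the 9 members was 10.30 to 11.10 on the QKO villus arrays and 6.97 to 7.47 on the QKO crypt arrays. In TKO it was 9.06 to 9.99 in villi and 7.63 to 7.78 in crypts. In WT it was 9.34 to 9.72 in villi, and in crypts it read 9.60, 8.26 and 8.24. In Rb it was 9.10 to 9.53 in villi and 8.0, 6.97 and 9.49 in crypts. WT crypts 1 and Rb crypts 3 thus read at the villus level of their genotype, and every other crypt array read below all 12 villus arrays.

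**Figure D1:**
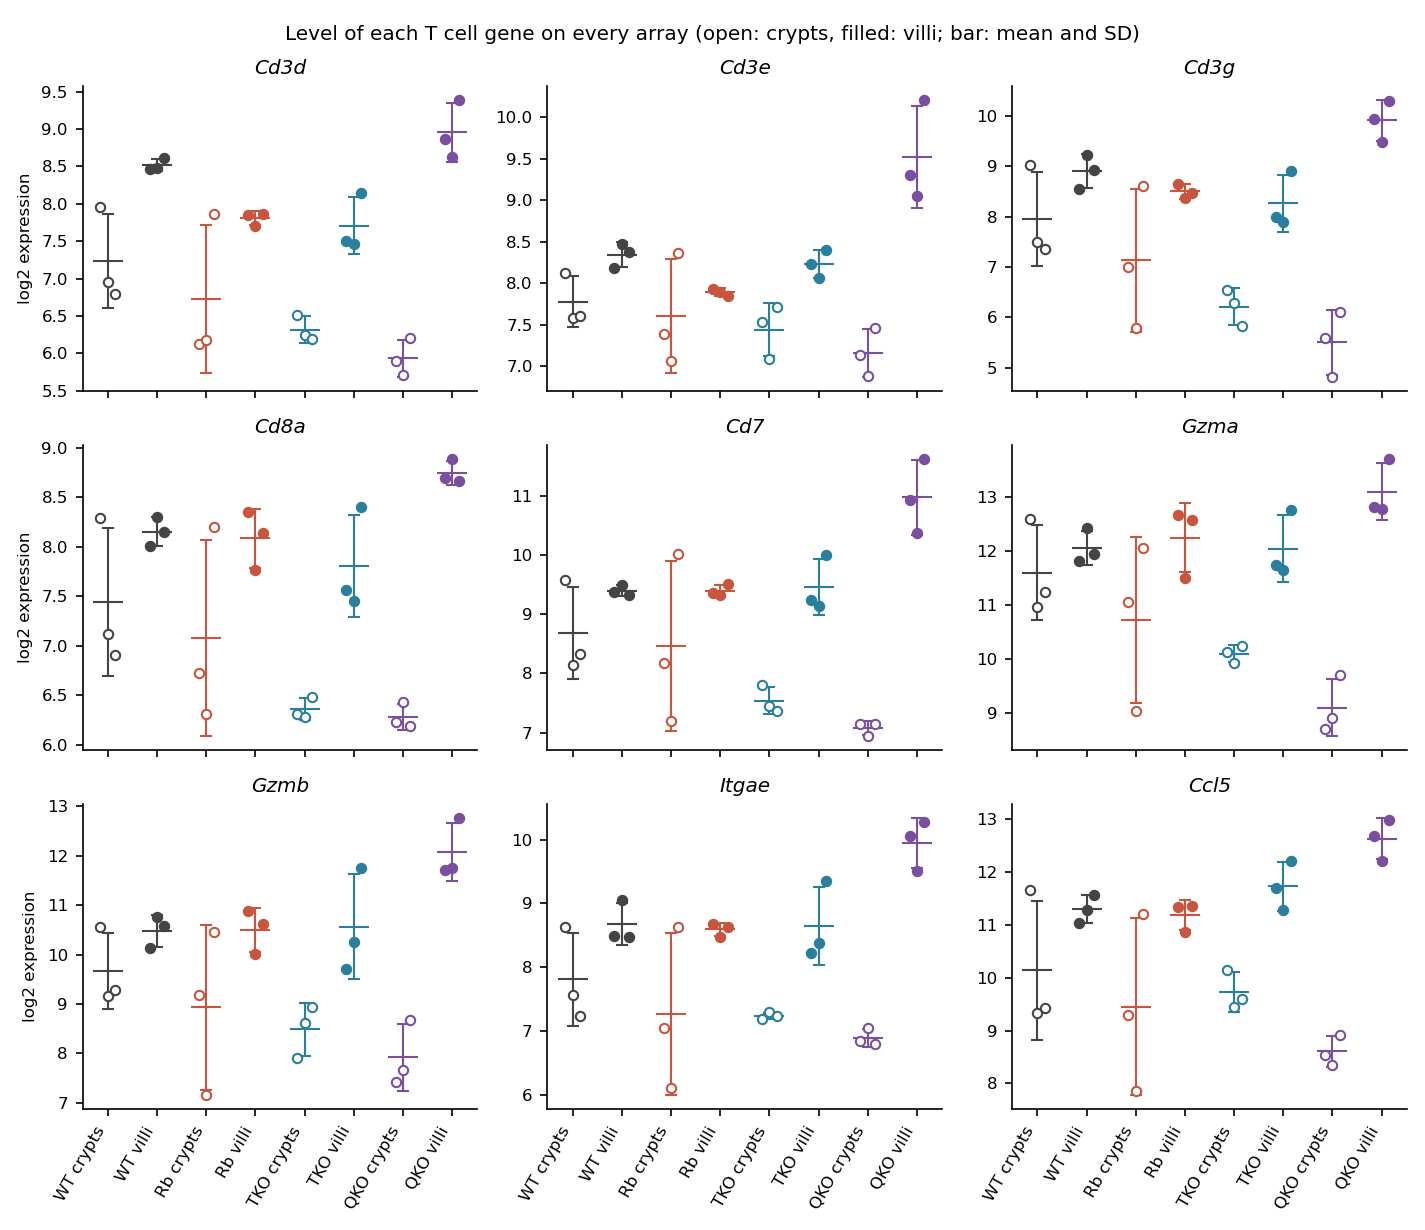
Log2 expression of each of the 9 T cell genes (vertical axis) on every array in the 8 groups (horizontal axis), with open points for crypts, filled points for villi, and a bar and whiskers for the mean and SD of 3 arrays. For each gene the QKO villus arrays have the highest mean and the QKO crypt arrays the lowest, and Rb crypts have the largest SD.

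The first question was whether the T cell genes differed between villi and crypts in each genotype. All 9 rose in QKO villi, where 13.5% of all genes were called higher (limma, adjusted p under 0.05), and 8 of 9 rose in TKO villi, where 6.43% were. In WT 1 of 9 rose (18.8% of all genes) and in Rb 3 of 9 (7.61%). Member medians were 0.82 in WT, 1.33 in Rb, 1.92 in TKO and 3.90 in QKO, beside medians over all genes of 0.083, -0.031, -0.00023 and 0.0078. The villus and crypt arrays did not overlap for 9 of 9 members in QKO and in TKO (15% and 15.6% of all genes, in this direction), for 2 in WT (29.2%) and for 0 in Rb (15.9%).

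Among the CD3 genes, Cd3g had the widest range. WT crypts gave 9.03, 7.49 and 7.35 and WT villi 8.55, 9.23 and 8.93, while Rb crypts gave 7.00, 5.79 and 8.62 and Rb villi 8.66, 8.36 and 8.48. In TKO it read 6.53, 6.29 and 5.82 in crypts and 7.99, 7.89 and 8.91 in villi, and in QKO 5.59, 4.81 and 6.10 in crypts and 9.95, 9.49 and 10.30 in villi. The compartments were apart in TKO and QKO only, since 1 crypt array of WT and 1 of Rb lay among the villus arrays. The villus level was higher by 4.41 ± 0.52 in QKO (SE; 21.3-fold, adjusted p = 4.65e-06) and by 2.05 ± 0.52 in TKO (adjusted p = 0.0114). The Cd3g differences of 0.94 ± 0.52 in WT (adjusted p = 0.161) and 1.37 ± 0.52 in Rb (adjusted p = 0.0723) did not pass.

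Cd3d rose in villi of every genotype, by 1.28 ± 0.35 in WT (adjusted p = 0.00584), 1.09 ± 0.35 in Rb (adjusted p = 0.0346), 1.39 ± 0.35 in TKO (adjusted p = 0.011) and 3.02 ± 0.35 in QKO (adjusted p = 4.18e-06). Its WT villus arrays at 8.47, 8.48 and 8.61 were close together, and the WT crypt arrays at 7.95, 6.96 and 6.79 lay below all of them. In Rb the compartments overlapped, with the highest crypt array at 7.87 and the villus arrays at 7.71 to 7.86. In QKO Cd3d read 5.90, 5.70 and 6.20 in crypts against 8.86, 8.62 and 9.39 in villi. Cd3e moved least: it rose by 2.36 ± 0.29 in QKO (adjusted p = 5.84e-06) and differed by 0.79 ± 0.29 in TKO (adjusted p = 0.0664), a difference called with the replicate number as a block (adjusted p = 0.0228). In WT and Rb its differences were 0.57 ± 0.29 and 0.29 ± 0.29, neither of which passed (adjusted p = 0.125 and 0.559).

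Genes of T cell identity and of adhesion to the epithelium came next. Cd7 read 7.80, 7.45 and 7.37 on the TKO crypt arrays and from 9.14 up to 10 on the TKO villus arrays, and 7.14, 6.94 and 7.15 against 10.93, 10.37 and 11.63 in QKO. The compartments did not overlap in either genotype, and the rise was 1.92 ± 0.47 in TKO (adjusted p = 0.00973) and 3.90 ± 0.47 in QKO (adjusted p = 5.8e-06). Cd8a, the CD8 alpha chain, rose by 1.45 ± 0.36 in TKO (adjusted p = 0.0114) and by 2.46 ± 0.36 in QKO (adjusted p = 3.25e-05). Its QKO crypt arrays lay within 6.19 to 6.43 and its QKO villus arrays within 8.66 to 8.88. Itgae rose by 1.33 ± 0.43 in Rb (adjusted p = 0.0369), 1.40 ± 0.43 in TKO (adjusted p = 0.0311) and 3.05 ± 0.43 in QKO (adjusted p = 2.12e-05). The Itgae crypt arrays of Rb spread from 6.12 to 8.63, up to the Rb villus arrays at 8.48 to 8.68.

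The effector genes also rose in villi of TKO and QKO. Gzma, the granzyme A gene, gave 12.60, 10.96 and 11.25 in WT crypts against 11.82, 12.42 and 11.94 in WT villi, which overlapped. In QKO it read 8.70, 8.91 and 9.71 in crypts and 12.81, 12.79 and 13.70 in villi, which did not. The villus rise was 3.99 ± 0.55 in QKO (15.9-fold, adjusted p = 1.62e-05) and 1.95 ± 0.55 in TKO (adjusted p = 0.0198), and the differences of 0.46 ± 0.55 in WT and 1.53 ± 0.55 in Rb did not pass (adjusted p = 0.545 and 0.0581). Gzmb, the granzyme B gene, rose by 4.16 ± 0.62 in QKO (17.9-fold, adjusted p = 3.55e-05) and 2.08 ± 0.62 in TKO (adjusted p = 0.0262). On the QKO arrays Gzmb read 7.41, 7.66 and 8.68 in crypts and 11.71, 11.76 and 12.76 in villi. Ccl5 rose by 4.03 ± 0.59 in QKO (16.3-fold, adjusted p = 2.86e-05), 2.00 ± 0.59 in TKO (adjusted p = 0.0245) and 1.74 ± 0.59 in Rb (adjusted p = 0.0445). It spanned 7.86 to 11.20 on the Rb crypt arrays and 10.86 to 11.37 on the Rb villus arrays.

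**Figure D2:**
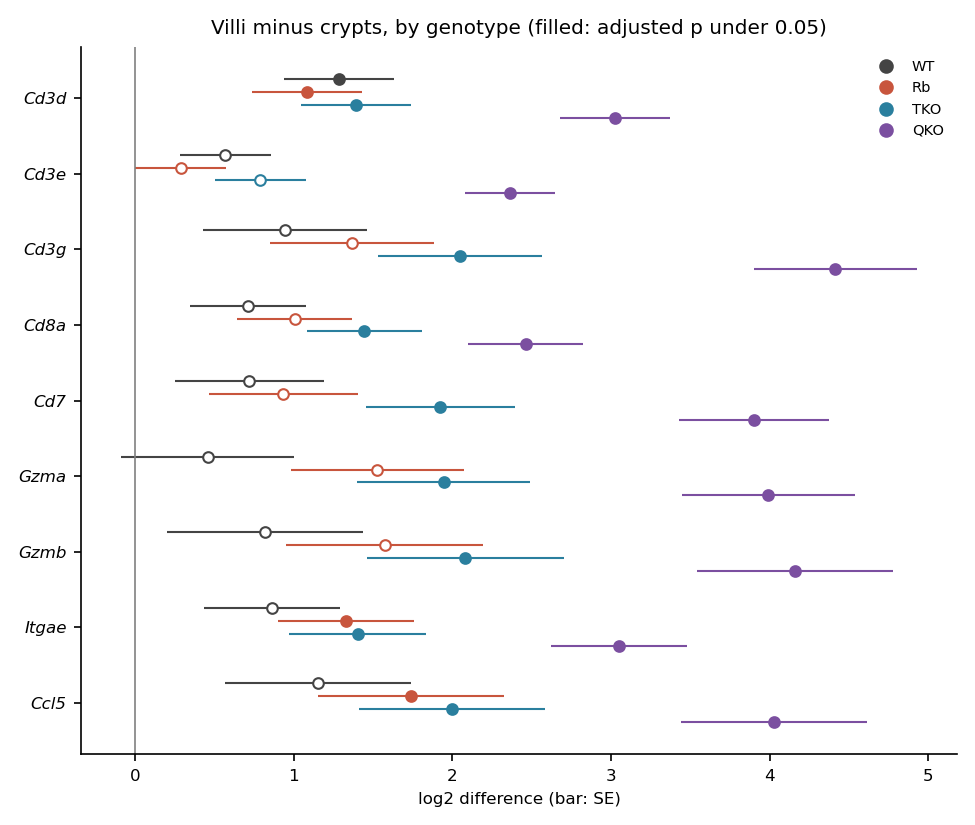
Log2 difference of villi minus crypts (horizontal axis) for each gene (vertical axis) in WT, Rb, TKO and QKO, with SE bars from the fit over all arrays and filled points at an adjusted p under 0.05. All 9 QKO points are filled and lie between 2.36 and 4.41, and 1 WT point, that of Cd3d, is filled.

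Single arrays mattered for these counts in every genotype but QKO, where 9 members were called whichever array was left out. In TKO no member was called without TKO crypts 2 or without TKO villi 3, when Cd3g differed by 2.09 (adjusted p = 0.0539) or 1.73 (adjusted p = 0.0793). In Rb, 8 members were called without Rb crypts 3, and 0 without Rb crypts 1, Rb crypts 2, Rb villi 1 or Rb villi 3, with 1 without Rb villi 2. In WT 5 members were called without WT crypts 1. Without the 2 arrays whose Rb1 went against the label the counts were 1 in WT and 0 in Rb. With sex as a covariate the count in Rb was also 0. On Rb crypts 3, the highest Rb crypt array for the T cell genes, the crypt marker mean was the lowest of the group, at 9.72 beside 10.36 and 10.50. The villus enterocyte mean was the highest of the group there, at 13.58 beside 13.08 and 12.91. On WT crypts 1 these means were 10.27 and 13.32, beside 10.37 to 10.58 and 13.05 to 13.41 on the other WT crypt arrays. On TKO villi 3, the highest TKO villus array in all 9 members, the crypt marker mean was 8.38, beside 9.07 and 9.29 on the other TKO villus arrays. The part of these markers in the result was not tested.

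The second question was how each genotype differed from WT within the crypts. In QKO crypts 5 of 9 members fell, where 3.06% of all genes were called lower, and all 9 were lower without overlap, as were 8.59% of all genes. Gzma fell by 2.5 ± 0.55 (adjusted p = 0.00426), Cd3g by 2.46 ± 0.52 (adjusted p = 0.00324), Cd7 by 1.61 ± 0.47 (adjusted p = 0.0267), Cd3d by 1.30 ± 0.35 (adjusted p = 0.016) and Cd8a by 1.16 ± 0.36 (adjusted p = 0.0387). The differences of Gzmb (-1.75 ± 0.62), Ccl5 (-1.54 ± 0.59), Itgae (-0.92 ± 0.43) and Cd3e (-0.62 ± 0.29) did not pass (adjusted p = 0.0655 to 0.176). Crypt markers were lower there too: 4 of 9 fell and 1 rose (median -0.85), among them Mki67, which marks dividing cells (-1.78 ± 0.29), and the stem cell gene Lgr5 (-1.13 ± 0.36). Their mean was 9.66 to 9.98 in QKO crypts and 10.27 to 10.58 in WT crypts, and the villus enterocyte mean was 13.52 to 13.61 against 13.05 to 13.41. The part of these markers in the fall of the T cell genes was not tested. The count of members was 7 without the 2 arrays of contrary Rb1. It was 2 without WT crypts 1 or without QKO crypts 2, 3 without QKO crypts 1, and 3 with sex as a covariate.

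No member was called between TKO and WT crypts by limma, although the arrays did not overlap for 6 of 9, all lower in TKO (12.8% of all genes). Over all genes 4.73% were called. The member median was -1.08, beside 0.02 over all genes, and 5 members had an unadjusted p under 0.05. Cd3g came nearest to the threshold (-1.75 ± 0.52, adjusted p = 0.0546). Its 3 TKO crypt arrays, at 5.82 to 6.53, lay below the lowest WT crypt array at 7.35. Without the 2 arrays of contrary Rb1, Cd3g fell by 2.05 ± 0.47 (adjusted p = 0.0246) and Cd8a by 1.35 ± 0.35 (adjusted p = 0.0463). In Rb crypts 0 of 9 members were called, as was no other gene (0% of all genes), and 0 had an unadjusted p under 0.05. For each member the Rb crypt arrays spanned more than the Rb minus WT difference, for example from 7.15 to 10.46 for Gzmb.

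Between QKO and Rb crypts 3 members fell (3.78% of all genes were called lower): Cd3g by 1.63 ± 0.52 (adjusted p = 0.0328), Gzma by 1.62 ± 0.55 (adjusted p = 0.0453) and Cd7 by 1.39 ± 0.47 (adjusted p = 0.0459). Of these, Cd7 showed no overlap between the arrays (9.22% of all genes). The count was 6 without Rb crypts 2 and also without the 2 arrays of contrary Rb1. It was 0 without Rb crypts 1, Rb crypts 3, QKO crypts 1 or QKO crypts 2, and 0 with sex as a covariate. Between QKO and TKO crypts 0 members were called by limma and 0 had an unadjusted p under 0.05, with a member median of -0.46 (1.61% of all genes were called); 4 members were lower without overlap (5.94% of all genes). These comparisons share their QKO arrays with the comparison of QKO and WT crypts.

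In villi the direction in QKO was the opposite. There 3 of 9 members rose over WT, where 11.6% of all genes were called higher, and the arrays of all 9 did not overlap (18.8% of all genes). Cd3e gave 8.18, 8.48 and 8.38 in WT villi against 9.30, 9.05 and 10.21 in QKO villi, a rise of 1.18 ± 0.29 (adjusted p = 0.0074). Cd7 rose by 1.58 ± 0.47 (adjusted p = 0.025) and Itgae by 1.27 ± 0.43 (adjusted p = 0.0471). The other members differed by 0.44 (Cd3d) to 1.59 (Gzmb), with adjusted p of 0.0828 to 0.431. With QKO villi 3 left out only Cd3e was called, and leaving out any 1 of the WT villus arrays also left 1 call. With sex as a covariate none was.

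Against Rb villi 4 members rose in QKO villi (14.2% of all genes were called higher), namely Cd3e by 1.63 ± 0.29 (adjusted p = 0.00036), Cd7 by 1.58 ± 0.47 (adjusted p = 0.019), Itgae by 1.35 ± 0.43 (adjusted p = 0.0284) and Cd3d by 1.15 ± 0.35 (adjusted p = 0.0208). All 9 were higher without overlap (22.7% of all genes). The count was 7 without the 2 arrays of contrary Rb1, 1 without Rb villi 2 or QKO villi 3, and 2 without Rb villi 1 or Rb villi 3. Against TKO villi 2 members rose (5.51% of all genes): Cd3e by 1.29 ± 0.29 (adjusted p = 0.00896) and Cd3d by 1.25 ± 0.35 (adjusted p = 0.0333). The arrays did not overlap for 8 of 9 (13.5% of all genes), with Gzmb, at 11.75 on TKO villi 3, as the exception. The count was 0 without QKO villi 3, 1 without TKO villi 1 or TKO villi 2, 4 without TKO villi 3, and 5 without the 2 arrays of contrary Rb1. The poly-A controls also differed here, at 10.52 to 10.77 in TKO villi and 11.28 to 11.89 in QKO villi. The part of this difference in the result was not tested.

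Neither Rb nor TKO villi differed from WT villi by the test in any member. In Rb villi the differences ran from -0.71 ± 0.35 for Cd3d (adjusted p = 0.191) to 0.19 ± 0.55 for Gzma, and 0 members had an unadjusted p under 0.05. In TKO villi they ran from -0.81 ± 0.35 for Cd3d (adjusted p = 0.163) to 0.43 ± 0.59 for Ccl5, and 1 member had an unadjusted p under 0.05. The share of all genes called was 14.8% in Rb and 9.77% in TKO villi. Of the members, 2 (Cd3d and Cd3e) were lower without overlap in Rb and 1 (Cd3d) in TKO. Cd3d was at 7.71 to 7.86 in Rb and 7.47 to 8.15 in TKO against 8.47 to 8.61 in WT, as were 24.9% and 16.8% of all genes.

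**Figure D3:**
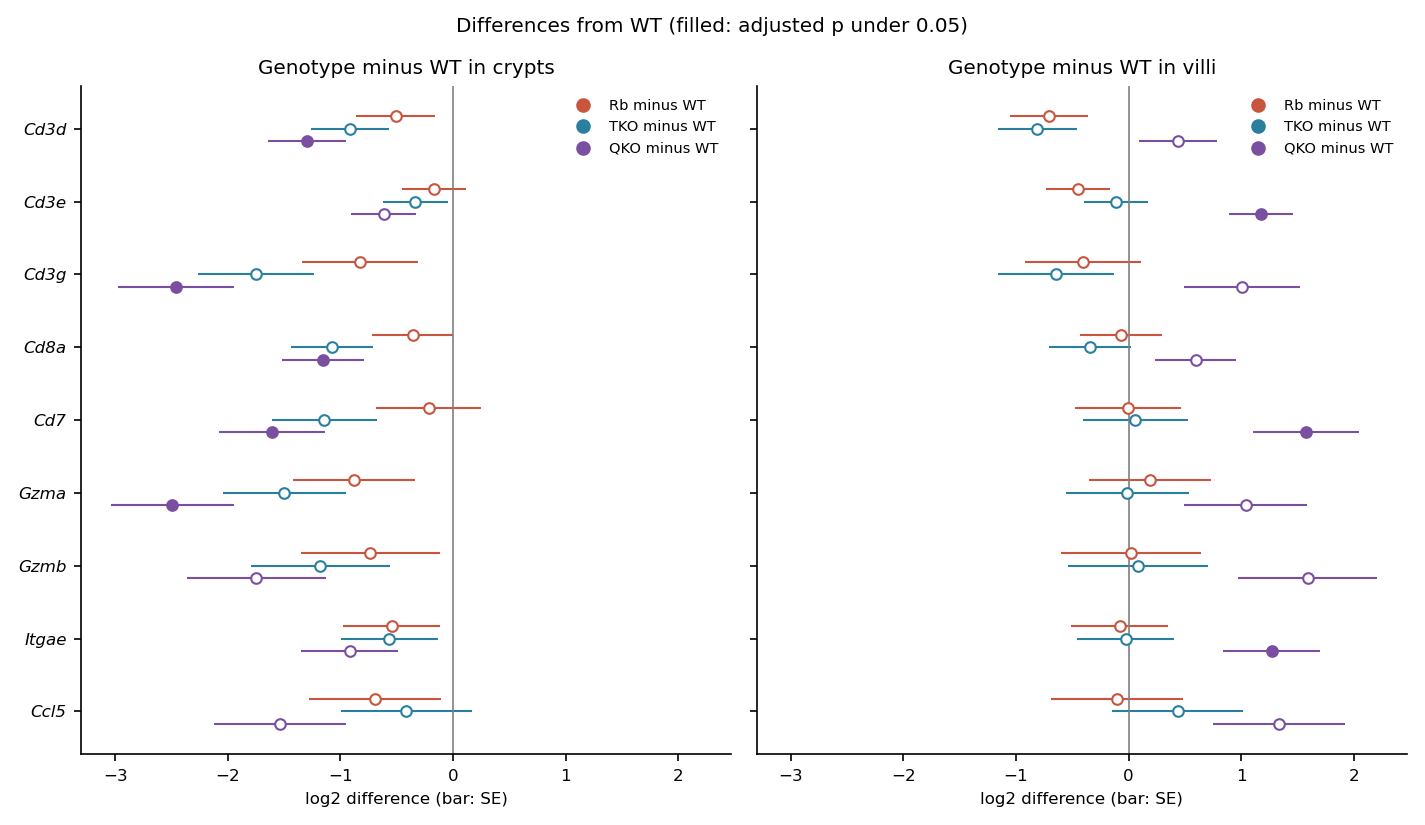
Log2 difference of each mutant genotype minus WT (horizontal axis) for each gene (vertical axis), in crypts on the left and in villi on the right, with SE bars and filled points at an adjusted p under 0.05. All points in crypts lie below 0, and in villi the QKO points lie above 0 while the Rb and TKO points lie between -0.81 and 0.43.

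Whether the genotype difference itself differed between compartments was tested as a contrast of the same fit. For the villus difference of QKO from WT less the crypt difference, all 9 members were called higher (2.87% of all genes were), with a median of 2.88 beside -0.048 over all genes. The values ran from 1.74 ± 0.49 for Cd3d (adjusted p = 0.0408) to 3.54 ± 0.77 for Gzma (adjusted p = 0.0112). The count was 4 without WT crypts 1, WT villi 1, WT villi 3, QKO crypts 1, QKO crypts 2 or QKO villi 3, each left out alone. It was 1 without both arrays of high median, when Cd7 differed by 2.79 ± 0.75 (adjusted p = 0.0444) and Cd3g by 2.93 ± 0.81 (adjusted p = 0.0507). For Rb and for TKO minus WT 0 members were called, and 0 had an unadjusted p under 0.05, with medians of 0.42 and 0.85 (5.22% and 3.43% of all genes were called).

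The contrast of QKO with Rb and with TKO was added after the values had been seen. For the same contrast of QKO with Rb, 4 members were called, from Cd3d (1.94 ± 0.49, adjusted p = 0.0203) to Cd3g (3.05 ± 0.73, adjusted p = 0.0146), with Cd3e and Cd7 between them, where 3.2% of all genes were called higher. The count was 9 without the 2 arrays of contrary Rb1, 9 without Rb crypts 2 alone, and 1 without both arrays of high median. For QKO minus TKO 0 members were called by limma and 8 had an unadjusted p under 0.05, with a median of 1.98 (0.0605% of all genes were called). No wider gap in QKO than in TKO passed the test.

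The effect of Rb loss was compared between mice with and without E2f1 to E2f3, as QKO minus TKO less Rb minus WT. In villi Cd3d (1.96 ± 0.49, adjusted p = 0.00907) and Cd3e (1.74 ± 0.40, adjusted p = 0.00522) were higher in this contrast, 2 of 9 members beside 8.91% of all genes. All 9 values were positive, with a median of 1.49. In crypts 0 members were called by limma and 0 had an unadjusted p under 0.05, with a median of 0.11 and values from -0.43 to 0.28 (0.0275% of all genes were called).

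In QKO, genes of other lists drawn up around T cell functions went along with the members. Such rises were not particular to T cells, since 10 of 10 pan-leukocyte and 5 of 12 myeloid genes also rose from crypts to villi in QKO. In QKO villi minus crypts, 19 of 26 genes of T cell receptor signalling rose and 0 fell, with a median of 1.12. The phosphatase gene Ptpn22 rose by 3.13 ± 0.39, the adaptor gene Lcp2 by 2.43 ± 0.36 and Thy1 by 2.36 ± 0.31. Of 24 genes of cytotoxicity and innate-like receptors 16 rose and 0 fell (median 1.52), led by the receptor gene Klrd1 (4.05 ± 0.54), the adaptor gene Tyrobp (3.53 ± 0.37) and the protease gene Ctsw (3.40 ± 0.38). Of 12 genes of homing and retention 8 rose and 0 fell (median 1.31), among them the chemokine receptor gene Cxcr6 (3.28 ± 0.41) and the integrin gene Itgb2 (3.06 ± 0.41). Of 14 transcription factors and cytokine receptors 7 rose, with Ikzf3 at 3.24 ± 0.45, and 1 fell. In TKO the counts of rises were 4, 11, 5 and 2 in the same order of lists, in Rb 2, 2, 0 and 0, and in WT 3, 8, 0 and 1. The share of all genes called higher in villi was 13.5% in QKO, 6.43% in TKO, 7.61% in Rb and 18.8% in WT. Apart from the 8 of 24 in WT, the counts of Rb and WT were near or below these shares.

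Not every gene of these lists followed. In QKO minus WT villi, where 11.6% of all genes were called higher, 10 of the 26 signalling genes rose, Thy1 by 1.80 ± 0.31 (adjusted p = 0.000443). Of the 24 cytotoxic genes 8 rose, with the chemokine gene Ccl3 at 2.00 ± 0.29 and the death ligand gene Fasl at 1.71 ± 0.45. Klrd1 did not: it read 8.62 to 8.97 in WT villi and 8.06 to 9.30 in QKO villi (-0.04 ± 0.54, adjusted p = 0.971), although it fell by 2.97 ± 0.54 in QKO crypts. Cd4, the co-receptor of helper T cells, was chosen after its values were seen and stayed between 5.97 and 6.63 on all 24 arrays. Cd8b1, the CD8 beta chain, chosen likewise, read 3.81 to 4.32 in QKO crypts and 5.57, 4.52 and 6.64 in QKO villi (1.58, adjusted p = 0.00954).

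Epithelial partners of these T cells changed in part. Il15, a cytokine that maintains intraepithelial T cells, rose from crypts to villi in all 4 genotypes, by 2.39 ± 0.24 in WT, 1.55 ± 0.24 in Rb, 1.64 ± 0.24 in TKO and 1.77 ± 0.24 in QKO. Cxcl16, the ligand of Cxcr6, rose likewise, by 1.02 ± 0.33 to 1.77 ± 0.33. In QKO minus WT villi 0 of 17 partners rose and 3 fell, where 5.21% of all genes were called lower. These were Tnfrsf14, which encodes a partner of the receptor Cd160 (-2.29 ± 0.36, adjusted p = 0.000208), H2-T3, which encodes a ligand of the CD8 alpha chain (-2.01 ± 0.31, adjusted p = 0.000167), and the gut-homing chemokine gene Ccl25 (-0.53 ± 0.12, adjusted p = 0.00387). H2-T3 has close relatives in the major histocompatibility complex whose transcripts its probes may share.

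Pan-leukocyte genes and part of the myeloid genes also rose in QKO villi, where 11.6% of all genes were called higher. Of 10 pan-leukocyte genes 10 were higher in QKO than in WT villi (median 1.31). In QKO crypts, where 3.06% of all genes were called lower than in WT crypts, 7 of them were lower (median -1.06). Of 12 myeloid genes 4 were higher in QKO than in WT villi, with Mpeg1 at 1.74 ± 0.26, and 0 were lower in QKO crypts. The myeloid mean was 5.82, 6.21 and 7.21 on the QKO villus arrays and 5.71 to 5.82 on the WT villus arrays, so that it was highest on QKO villi 3, as was the member mean. Among the 11 genes of B and plasma cells 2 were higher in QKO than in WT villi (median 0.04), and in QKO crypts 3 were lower and 1 higher. Of 10 genes of mast cells and eosinophils and 2 of natural killer cells, limma called 0 in QKO minus WT villi (medians -0.15 and 0.15), and 1 and 0 had an unadjusted p under 0.05. Of 10 genes of stroma and endothelium 1 was higher, Vim (2.54 ± 0.32). The stroma mean was 5.65, 6.55 and 6.75 on the QKO villus arrays and 5.42 to 5.57 in WT villi. The collagen gene Col3a1, chosen after its values were seen, read 7.94, 11.31 and 11.39 in QKO villi and 7.07 to 7.44 in WT villi (3.02 ± 1.07, adjusted p = 0.056). The part of these cells in the member differences was not tested. Levels of 10 epithelial genes had means between 12.23 and 12.63 on every array.

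**Figure D4:**
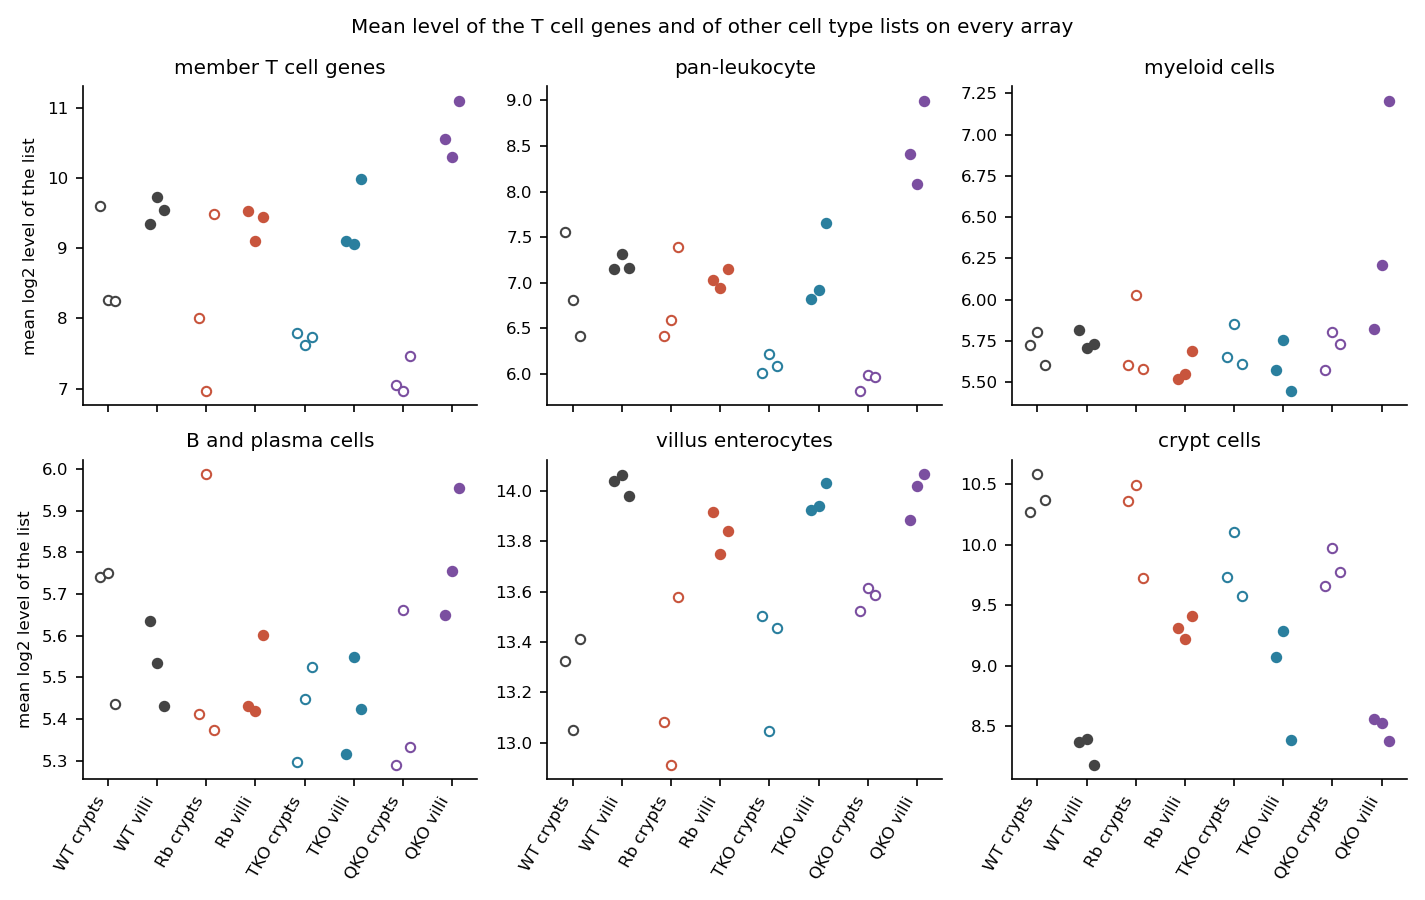
Mean log2 level of the 9 T cell genes and of 5 other lists (vertical axes) on every array of the 8 groups (horizontal axis), with open points for crypts and filled points for villi. The pan-leukocyte mean follows the T cell mean, and the myeloid mean is highest on QKO villi 3 at 7.21.

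The members moved together within groups. Over 36 pairs of members, deviations from the group means on 24 arrays correlated with a median r of 0.85, from 0.62 (Cd3e and Cd8a) to 0.94 (Cd7 and Ccl5). These points share RNA, array and normalization. All 9 members were above their group mean on WT crypts 1, Rb crypts 3 and TKO villi 3, and all 9 below it on WT crypts 2, WT crypts 3, WT villi 1, Rb crypts 2 and TKO villi 2. Groups differed in spread: the median SD of the members was 1.42 in Rb crypts and 0.77 in WT crypts, but 0.23 in TKO crypts and 0.15 in Rb villi.

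**Figure D5:**
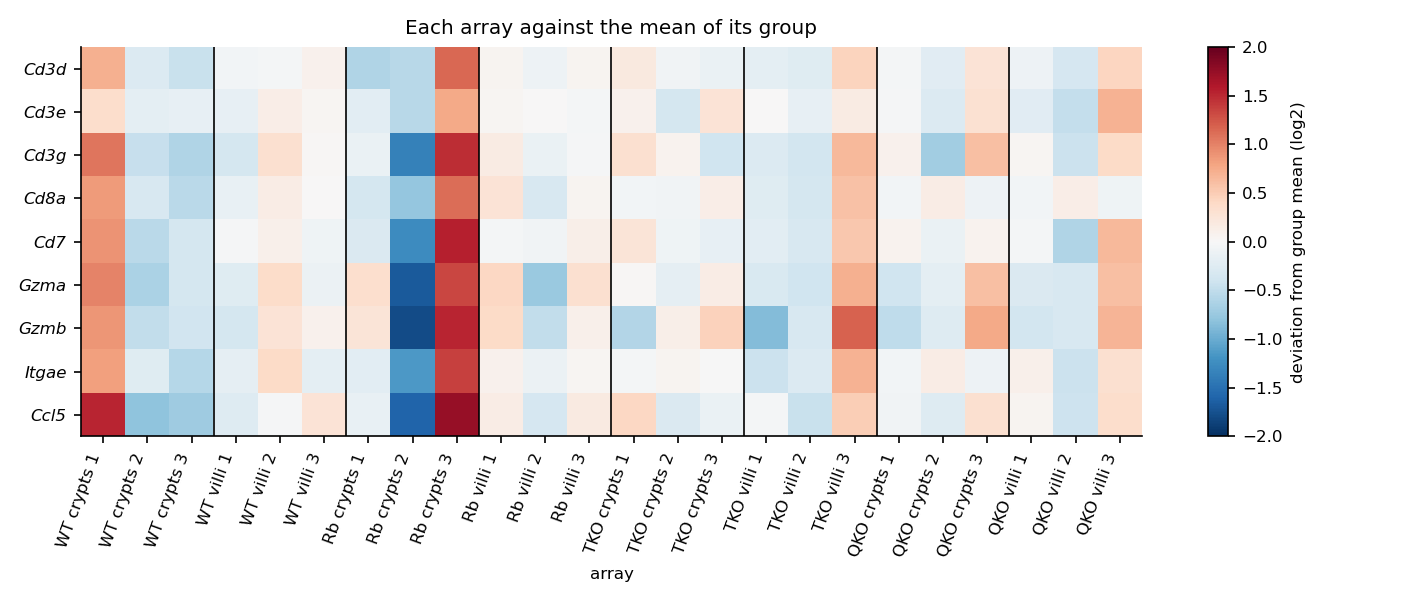
Deviation of each gene (rows) from the mean of its group on each of 24 arrays (columns), in log2 units from blue (below) to red (above). Columns are nearly uniform in colour, and the strongest are Rb crypts 2, Rb crypts 3 and WT crypts 1.

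The genes outside the list whose levels were most like the mean of the members over 24 arrays were Gimap4 (r = 0.98), Gimap7 (0.98), Cd96 (0.98), Trbv1 (0.98), Trgv4 (0.98), Ikzf3, Nkg7, Trgv1, Ctsw and Cd48. Trgv4 and Trgv1 are variable segments of the gamma chain of the T cell receptor, and Trbv1 of its beta chain. By deviations from group means, the closest were Klrd1 (r = 0.97), Cd96 (0.96), Gimap4 (0.95), Trgv4 (0.95) and Trgv1 (0.93). Of the 10 closest by levels, 7 were also among the 10 closest by deviations.

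Other probe sets of a member gave the same direction in the QKO comparisons with unequal size. For Cd8a, with 5 probe sets, villi minus crypts in QKO was 2.46 for the one used and 3.50, 3.63, 1.32 and 2.48 for the others. Its QKO minus WT difference in villi was 0.59 for the one used and 0.26 to 1.42 for the others. The second Itgae probe set differed by 3.19 between QKO villi and crypts, beside 3.05 for the one used.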

How the data were processed

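Per the labels' protocols, 3 ug of Trizol-extracted total RNA went into each biotinylated cRNA. The values the authors deposited are log2 expression per probe set, from 2.29 to 14.89. The sources used here name no summarisation or normalization method, and nothing was normalized again for the main tests. The platform annotation gave 34945 of 45101 probe sets 1 gene, 932 several and 9160 none named here, with 64 controls. Symbols of 34741 were updated through Entrez identifiers. The tests used limma 3.58.1 (R 4.3.3) with 1 mean per group over 24 arrays, residual df 16, trended eBayes variances, 2-sided p-values and Benjamini-Hochberg adjustment over 18193 genes within each of 21 comparisons, called at an adjusted p under 0.05. The procedure was tested on simulated data. The members, gene lists and alternatives were chosen with earlier results of these data known. At most the 3 called genes with the largest difference per other list and comparison were named, apart from genes said to be chosen later. The number of arrays limits the precision. Separate animals behind the arrays of a group are not stated in the labels, so p-values may measure technical spread only. Within groups arrays correlated at 0.978 to 0.995 and 0 pairs were identical. Deviations of same-numbered crypt and villus arrays correlated at 0.61, 0.55 and 0.64 in TKO and 0.55, 0.25 and 0.37 in QKO, so the numbers pair the compartments there, by the values and not by the labels, and not in WT or Rb. The main tests did not use this pairing, which entered only in the setting with the replicate number as a block. Figures were drawn with matplotlib 3.10.9.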

Additional observations from a re-analysis of the deposited data

Results flagged for a closer look

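The difference between QKO and WT was not the same in villi and crypts for any of the 9 members, tested as a contrast of the fit over all arrays with limma. Beyond the Cd3d and Gzma values given above, the villus difference of QKO from WT less the crypt difference was 1.79 for Cd3e (adjusted p = 0.013), 3.47 for Cd3g (adjusted p = 0.0091), 1.75 for Cd8a (adjusted p = 0.0495), 3.18 for Cd7 (adjusted p = 0.00905), 3.34 for Gzmb (adjusted p = 0.0288), 2.19 for Itgae (adjusted p = 0.0392) and 2.88 for Ccl5 (adjusted p = 0.0454), beside 1.74 for Cd3d and 3.54 for Gzma. For QKO minus Rb the same contrast was 1.94 for Cd3d, 2.07 for Cd3e (adjusted p = 0.00426), 3.05 for Cd3g and 2.97 for Cd7 (adjusted p = 0.00981). The effect of Rb loss in villi differed with E2f status for Cd3d (1.96) and Cd3e (1.74). Groups of 3 arrays are too small to test single arrays as outliers.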

How the results depend on the processing

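Of 189 member differences 53 were called. Over 9 other settings no called difference changed direction, 418 of their values kept the call and 59 lost it. In these settings 57 values that the main fit did not call gained a call. With 1 array left out, 281 values kept the call, 127 lost it and 24 gained one. The number of members called moved by more than 1.5 times as follows. With arrays centred on their medians it was 2 for villi minus crypts in WT, 5 in Rb and 1 for QKO minus TKO in villi, also 1 after quantile normalization. With dim genes removed it was 6 for villi minus crypts in Rb and 1 for TKO minus WT in crypts. With the mean of all probe sets it was 1 for villi minus crypts in Rb and 1 for QKO minus Rb in crypts. With the replicate block it was 7 for villi minus crypts in Rb, 8 for QKO minus Rb in villi minus that in crypts, 1 for TKO minus WT in crypts, 7 for QKO minus Rb in villi and 4 for QKO minus TKO in villi. The numbers do not pair the arrays of different genotypes or those of Rb. With sex as a covariate it was 0 for villi minus crypts in Rb, 3 for QKO minus WT in crypts, 0 in villi, 0 for QKO minus Rb in crypts and 1 for QKO minus TKO in villi. Without the 2 arrays whose Rb1 went against the label it was 0 for villi minus crypts in Rb, 2 for TKO minus WT in crypts, 6 for QKO minus Rb in crypts, 7 in villi and 9 for the difference between them, and 5 for QKO minus TKO in villi. Without QKO villi 3 and QKO crypts 2 it was 1 for TKO minus WT in crypts, 2 for QKO minus WT in crypts, 1 in villi and 1 for the difference between them, 0 for QKO minus Rb in crypts, 1 in villi and 1 for the difference between them, and 0 for QKO minus TKO in villi. With 1 array left out the count ranged from 1 to 5 for villi minus crypts in WT, 0 to 8 in Rb and 0 to 8 in TKO, and stayed at 9 in QKO. It ranged from 2 to 5 for QKO minus WT in crypts, 1 to 3 in villi and 4 to 9 for the difference between them, from 0 to 6 for QKO minus Rb in crypts, 1 to 4 in villi and 3 to 9 for the difference between them, from 0 to 4 for QKO minus TKO in villi, and from 2 to 3 for QKO minus TKO less Rb minus WT in villi. The cause of these changes was not tested. Centring on medians moved the median of all genes by 0.15 for villi minus crypts in WT, -0.12 for QKO minus WT in crypts and -0.21 in villi.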

Other observations

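The array labelled Rb crypts 2, the lowest of its group in 8 of the 9 members (Cd3d read 6.17 on it and 6.13 on Rb crypts 1), was the highest of its group for B cells. Its mean over 11 genes of B and plasma cells was 5.99, beside 5.41 and 5.37 on the other Rb crypt arrays and at most 5.95 on all other arrays. Its mean over 12 myeloid genes, 6.03, was also the highest of its group, beside 5.60 and 5.58. The B cell genes Cd79a and Ms4a1, chosen after their values were seen, read 6.49 and 5.75 on it. Cd79a read 5.28 and 5.29, and Ms4a1 4.44 and 4.28, on the other Rb crypt arrays.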
